A study of Mus musculus with 61 samples.

Results

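The contacts of 2 enhancers at opposite ends of the constant genes of the mouse immunoglobulin heavy chain locus, Igh, were compared in B cells activated for 72 h. The first set held the 3 libraries captured with the Emu probe, and the second the 3 libraries captured with the hs4 probe. These are 6 of the 61 Tri-C libraries of the study. They were taken by probe and time from the sample titles, and the libraries of a separate series on the compound TPL were left out. Titles and characteristics give the same for both sets apart from the probe. Each set was primary B cells, B18 AIDKO, clone 1, replicates 1 to 3, activated for 72 h in medium with LPS and IL4. AIDKO names a loss of AID, the deaminase that starts switch recombination, so both sets lacked it. Nothing states whether the replicates came from separate animals or cultures, and p-values here measure the spread between these libraries.

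Emu is the intronic enhancer between the J segments and the first constant gene, and hs4 is an enhancer of the 3′ regulatory region beyond the last constant gene. During class switching the cell joins the switch region near Emu to one in front of a downstream constant gene, and both enhancers are known to take part. LPS with IL4 is a treatment known to induce transcription of, and switching to, IgG1. In Tri-C a fragment at the viewpoint is pulled down together with the fragments ligated to it, and a read with 2 further fragments gives a contact of the viewpoint with a pair of places. Each such contact therefore has 2 ends.

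The maps had bins of 1 kb and no coordinates, so places are given in kb from the start of the map. The hs4 viewpoint lay in the bin that ends at 32 kb and the Emu viewpoint in the bin that ends at 230 kb. Bins within 10 kb of either viewpoint were left out of both ends in all maps, and the map stops just past Emu. The sites of the other probes of the study divided these into 8 zones. From the hs4 end these were the stretch beyond hs4 (0 to 21 kb), the hs4 side (42 to 80 kb), the IgG2a site (80 to 91 kb), the middle (91 to 130 kb) and the IgG1 region (130 to 150 kb). Then came the stretch between IgG1 and IgG3 (14 bins), the IgG3 site (11 bins) and the Emu side (44 bins).

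The deposited values are a signal that sums to 300000 in each map. Whole contacts recovered from these values numbered 16204, 17227 and 16139 in the Emu libraries and 28531, 31131 and 22988 in the hs4 libraries, so the hs4 maps were deeper. The kept bins held 48.7%, 48.4% and 42.3% of the signal in Emu libraries and 54.7%, 56.2% and 55.7% in hs4 libraries. Shares below are percentages of the kept signal. The 6 libraries were fitted together with those of both probes at 0 and 48 h, 16 in all.

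Relative to hs4, Emu had larger shares of contacts at the IgG1 region, in the stretch between IgG1 and IgG3, at the IgG3 site and on the side next to Emu. It had smaller shares on the hs4 side and in the middle. Of 28 blocks and zones, limma called 17 different between the viewpoints (60.7%), 9 higher from Emu (32.1%) and 8 lower (28.6%), at a Benjamini-Hochberg adjusted p under 0.05. Among the 20 blocks of at most 10 kb, 5 were higher (25%) and 6 lower (30%), and among the 8 zones 4 were higher (50%) and 2 lower (25%). Values of the viewpoints did not overlap in 20 of the 28 (71.4%). Blocks lie inside or across zones, so these are not separate changes. Without pairs under 5 kb apart 7 passed the test, 5 higher and 2 lower. The TPL series also holds 3 Emu libraries at 72 h without the compound, and with these in place of the Emu libraries used here there were 8, 5 higher and 3 lower.

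**Figure D1:**
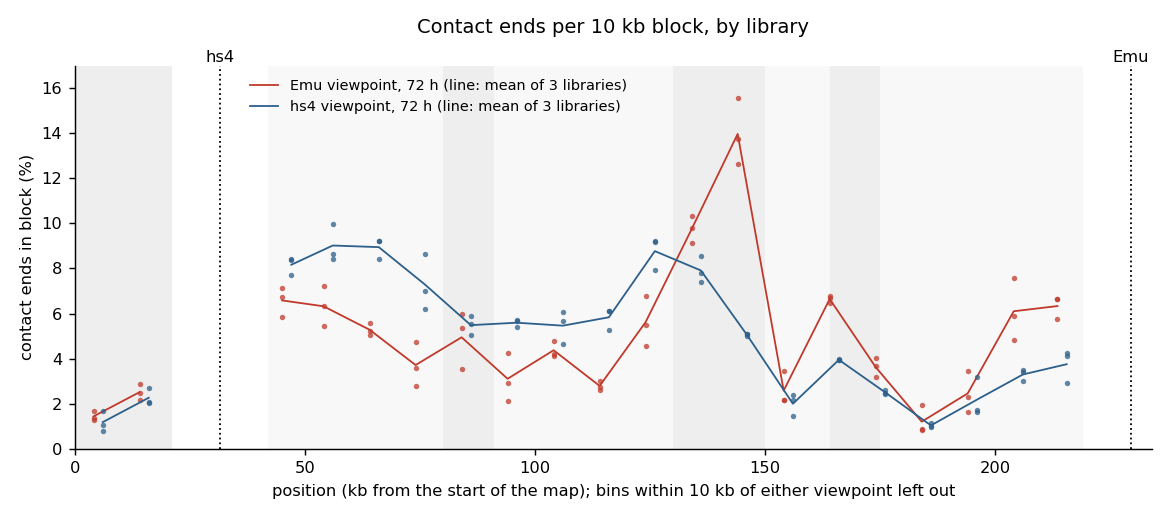
Share of contact ends (%) in each 10 kb block, plotted against position in kb from the start of the map, with a point per library and a line through the mean of 3. Emu is in red and hs4 in blue, shading alternates between zones, and blocks next to the viewpoints are left out. The Emu line peaks at 140 to 150 kb, where the 3 Emu libraries held 12.6% to 15.6% of ends and the 3 hs4 libraries 5.0% to 5.10%.

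In the IgG1 region, Emu libraries had 22.9%, 23.5% and 24.7% of ends and hs4 libraries 13.5%, 12.9% and 12.5%. Every Emu value lay above every hs4 value, and the mean was 23.7 ± 0.88% from Emu and 13 ± 0.53% from hs4 (SD, n = 3 each). The log2 difference was 0.87 (SE 0.13, limma adjusted p = 1.5e-04). An exact permutation test over the 6 libraries gave p = 0.1, the smallest that 20 splits allow.

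The difference was uneven within the region. At 140 to 150 kb, Emu libraries had 12.6%, 13.7% and 15.6% of ends and hs4 libraries 5.0%, 5.08% and 5.10%. This log2 difference of 1.46 (SE 0.15, limma adjusted p = 4.3e-06) was the largest of any block. At 130 to 140 kb, Emu libraries had 10.3%, 9.82% and 9.11% and hs4 libraries 8.54%, 7.79% and 7.40%. The groups did not overlap there either, yet the log2 difference of 0.30 did not pass (SE 0.17, limma adjusted p = 0.16). It passed with the 6 libraries fitted alone (adjusted p = 0.037), and turned to -0.26 by voom on recovered contacts and to -0.41 with the Emu libraries without TPL (adjusted p = 0.31 and 0.12).

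The 13th bin of the region, which holds the site of the study's IgG1 probe, was the fullest kept bin from Emu. It had 3.11%, 4.83% and 5.37% of ends in Emu libraries and 0.996%, 0.842% and 1.05% in hs4 libraries. Bins 11, 12, 14 and 6 of the region completed the 5 fullest from Emu. Bin 6 held 3.05%, 3.01% and 3.06% in Emu libraries and 1.45%, 1.25% and 1.25% in hs4 libraries. From hs4 the 5 fullest were the bins that end at 48, 59, 68 and 51 kb, all on the hs4 side, and the first bin of the IgG1 region. That first bin had 1.34%, 0.889% and 0.409% of ends in Emu libraries and 1.62%, 1.37% and 1.17% in hs4 libraries, which overlap. From hs4, bins 6 and 1 of the region thus held about as much as each other.

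The size of the IgG1 difference depended on the libraries and on the counting. In recovered contacts the share was 15.1%, 19.2% and 15.9% from Emu and 12.9%, 11.6% and 12.4% from hs4 (voom log2 difference 0.44, adjusted p = 0.015). The 3 Emu libraries without TPL had 18.8%, 13.1% and 16.1%. Against hs4 these gave a log2 difference of 0.29 that did not pass (limma adjusted p = 0.19). The block at 140 to 150 kb passed in both, at log2 1.33 in recovered contacts (voom adjusted p = 2.5e-06) and 0.96 with those libraries (limma adjusted p = 0.0016). Those libraries had at most 334 bin pairs above 0 among the kept bins, and the Emu libraries used here at least 629.

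At the IgG3 site, another constant gene on the way to Emu, Emu libraries had 5.04%, 6.54% and 6.02% of ends and hs4 libraries 3.71%, 3.88% and 2.94%. All Emu values lay above the hs4 values, with a log2 difference of 0.74 (SE 0.19, limma adjusted p = 0.0048). Between IgG1 and IgG3 the shares were 5.47%, 6.01% and 4.43% in Emu libraries and 3.90%, 3.51% and 3.56% in hs4 libraries (log2 0.53, SE 0.17, limma adjusted p = 0.012). That call was lost without Emu replicate 2 (log2 0.43, adjusted p = 0.062), without pairs under 5 kb apart (log2 0.47, adjusted p = 0.071) and with the Emu libraries without TPL (log2 0.26, adjusted p = 0.40). On the Emu side, Emu libraries had 20%, 18% and 15.3% and hs4 libraries 9.70%, 11.7% and 13.2% (log2 0.62, SE 0.16, limma adjusted p = 0.0044). Near this viewpoint the groups again did not overlap. The call on the Emu side was lost without pairs in 1 bin (log2 0.54, adjusted p = 0.067).

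Among single blocks here, that at 200 to 210 kb held 6.10 ± 1.37% from Emu and 3.30 ± 0.27% from hs4 (log2 0.86, limma adjusted p = 0.0033). That call was lost without pairs under 5 kb apart, without pairs in 1 bin, by voom and with the Emu libraries without TPL (log2 0.56 to 0.82, adjusted p = 0.055 to 0.20). The block past 210 kb held 6.33 ± 0.51% from Emu and 3.75 ± 0.73% from hs4 (log2 0.77, limma adjusted p = 0.0015). It was lost without pairs under 5 kb apart (log2 0.47, adjusted p = 0.12). The block at 160 to 170 kb, which meets the IgG3 site, held 6.65 ± 0.16% from Emu and 3.95 ± 0.05% from hs4 (log2 0.75, limma adjusted p = 0.0044). This call held under every alternative run. The block at 170 to 180 kb held 3.62 ± 0.41% from Emu and 2.51 ± 0.10% from hs4 (log2 0.52, limma adjusted p = 0.0064). Its call was lost without pairs under 5 kb apart (log2 -0.21, adjusted p = 0.55), without pairs in 1 bin (log2 0.16, adjusted p = 0.69) and with the Emu libraries without TPL (log2 0.27, adjusted p = 0.24). Not every block near Emu passed the test. The block at 180 to 190 kb held 1.20 ± 0.62% from Emu and 1.04 ± 0.08% from hs4, and that at 190 to 200 kb held 2.46 ± 0.92% from Emu and 2.18 ± 0.86% from hs4.

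On the hs4 side, Emu libraries had 22.3%, 19.3% and 24.1% of ends and hs4 libraries 33.1%, 33% and 34.2%. Each Emu value lay below every hs4 value, with a log2 difference of -0.62 (SE 0.12, limma adjusted p = 7.8e-04). In the middle, between the IgG2a site and the IgG1 region, Emu libraries had 13.9%, 16.1% and 17.2% and hs4 libraries 26.7%, 26.5% and 23.4% (log2 -0.70, SE 0.15, limma adjusted p = 0.0016). Of the 8 zones, the middle had the largest fall from Emu relative to hs4. With the Emu libraries of the TPL series neither call remained, at log2 -0.27 and -0.42 (limma adjusted p = 0.12 and 0.11). The middle also missed the test without pairs under 5 kb apart (log2 -0.31, adjusted p = 0.12).

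The 5 called blocks with the largest falls lay in these 2 zones, apart from 1 bin at the edge of the IgG2a site. The block at 110 to 120 kb, the last block but 1 before the IgG1 region, held 2.79 ± 0.21% from Emu and 5.83 ± 0.49% from hs4 (log2 -1.06, limma adjusted p = 0.0056). Its log2 difference was -0.54 without pairs under 5 kb apart (adjusted p = 0.052). The block at 70 to 80 kb held 3.72 ± 0.98% from Emu and 7.29 ± 1.25% from hs4 (log2 -0.99, limma adjusted p = 0.0048). Here the difference was -0.34 without pairs under 5 kb apart and -0.023 with the Emu libraries without TPL (adjusted p = 0.28 and 0.95). The block at 90 to 100 kb held 3.11 ± 1.07% from Emu and 5.59 ± 0.16% from hs4 (log2 -0.90, limma adjusted p = 0.019), a call lost without Emu replicate 2 (log2 -0.66, adjusted p = 0.11). It was also lost without pairs under 5 kb apart, without pairs in 1 bin, by voom and with the Emu libraries without TPL (log2 -0.83 to -0.06, adjusted p = 0.055 to 0.93). The block at 60 to 70 kb held 5.28 ± 0.27% from Emu and 8.95 ± 0.46% from hs4 (log2 -0.76, limma adjusted p = 1.5e-04). This too was lost without pairs under 5 kb apart (log2 -0.78, adjusted p = 0.061) and with the Emu libraries without TPL (log2 -0.32, adjusted p = 0.15). The block at 120 to 130 kb, next to the IgG1 region, held 5.62 ± 1.12% from Emu and 8.77 ± 0.73% from hs4 (log2 -0.66, limma adjusted p = 0.0048). It was -0.30 without pairs under 5 kb apart (adjusted p = 0.11).

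Both remaining zones missed the test. At the IgG2a site, Emu libraries had 5.69%, 6.06% and 3.57% of ends and hs4 libraries 5.62%, 5.18% and 5.98%. These overlap, and the log2 difference of -0.17 (SE 0.23, limma adjusted p = 0.53) turned to 0.07 without Emu replicate 3 (adjusted p = 0.80). Beyond hs4, Emu libraries had 4.69%, 4.45% and 4.65% and hs4 libraries 3.72%, 3.35% and 4.11% (log2 0.31, SE 0.19, limma adjusted p = 0.19). This difference passed by voom (log2 0.75, adjusted p = 0.015), with the 6 libraries fitted alone and with bins within 5 kb left out (adjusted p = 0.037 and 0.033), and was -0.31 without pairs under 5 kb apart (adjusted p = 0.42). This stretch is at least 11 kb from hs4 and more than 200 kb from Emu.

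Seen from the opposite end, each enhancer also had contacts in the window of the other. With only the window of the own probe left out, the window of 21 bins around hs4 held 15.5%, 17.8% and 19% of ends in Emu libraries. The window of 15 bins around Emu, where the map stops, held 9.75%, 8.61% and 10.3% in hs4 libraries. The windows differ in width, so no test was made.

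Since the IgG1 region starts 80 kb from Emu and 99 kb from hs4, ends were also counted by distance from the own viewpoint. The stretch between the windows of both probes was used for this, and all of it lies at least 11 kb from either. Ends lay further out in each Emu library than in each hs4 library. Ends more than 99 kb from the viewpoint made up 43.9%, 43.4% and 47.1% in Emu libraries and 30.4%, 31.7% and 32.4% in hs4 libraries. The median distance of an end was 94, 94 and 96 kb from Emu and 75, 77 and 74 kb from hs4. Neither measure overlapped between viewpoints (exact permutation p = 0.1 for each, the smallest possible).

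Of 18 classes of distance of 10 kb each, the last being shorter, limma called 10 (55.6%), 6 higher from Emu (33.3%) and 4 lower (22.2%). Values did not overlap in 13 classes (72.2%). All 4 lower classes lay within 80 kb of the viewpoint, and all 6 higher ones beyond that distance. At 30 to 40 kb the share was 3.41%, 2.30% and 1.48% from Emu and 9.79%, 8.72% and 10.6% from hs4 (log2 -2.08, SE 0.36, limma adjusted p = 1.2e-04). At 40 to 50 kb it was 1.18%, 2.12% and 1.27% from Emu and 7.01%, 6.77% and 8.86% from hs4 (log2 -2.34, SE 0.29, limma adjusted p = 5.9e-06). These classes lie on the Emu side seen from Emu, and at 62 to 82 kb, mostly on the hs4 side, seen from hs4, so Emu had a stretch of few contacts where hs4 had many. At 70 to 80 kb the share was 2.32 ± 0.77% from Emu and 6.69 ± 0.75% from hs4 (log2 -1.56), and at 10 to 20 kb it was 7.15 ± 0.45% from Emu and 10.8 ± 0.73% from hs4 (log2 -0.60), with limma adjusted p = 5.9e-06 and 0.0011.

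The class at 80 to 90 kb covers 9 bins of the block at 140 to 150 kb seen from Emu and lies in the middle seen from hs4. It had 13.4%, 14.4% and 16.5% of ends from Emu and 5.87%, 6.22% and 5.31% from hs4. It was the fullest class from Emu, and the log2 difference was 1.34 (SE 0.16, limma adjusted p = 5.9e-06). All 10 of its bins seen from Emu, but 7 of the 10 seen from hs4, were above 0 in any of the 16 libraries of both probes. At 150 to 160 kb the share was 4.34%, 3.57% and 5.10% from Emu and 0.785%, 0.744% and 0.821% from hs4 (log2 2.43, SE 0.29, limma adjusted p = 5.9e-06). From Emu this class is at 69 to 79 kb on the hs4 side, and from hs4 it is a part of the Emu side that also held few contacts from Emu itself. The other higher classes were 160 to 170 kb (log2 1.29), 140 to 150 kb (log2 0.95), beyond 180 kb (log2 0.93) and 170 to 180 kb (log2 0.83), with limma adjusted p between 5.8e-05 and 0.0020. At 140 to 150 kb the log2 difference was 0.08 without pairs under 5 kb apart (adjusted p = 0.78). At 170 to 180 kb the call was lost without those pairs and with the Emu libraries without TPL (log2 0.53 and 0.41, adjusted p = 0.066 and 0.053). The calls of the other 8 classes held under every alternative run at this width.

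**Figure D2:**
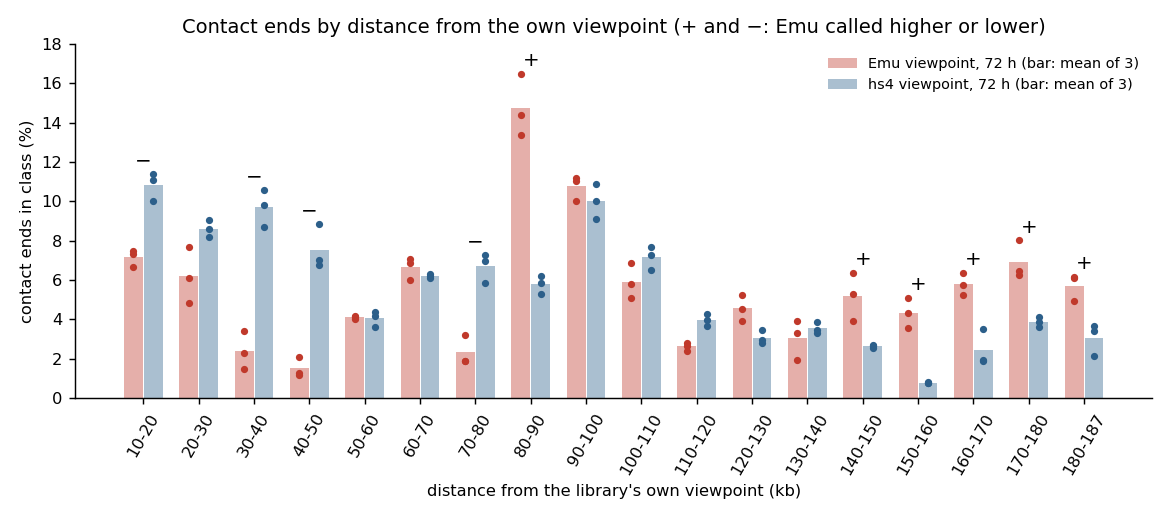
Share of contact ends (%) in classes of distance from the own viewpoint (kb), for the Emu libraries (red, left) and the hs4 libraries (blue, right), with bars for the mean of 3 and a point per library. Plus and minus signs mark classes that limma called higher or lower from Emu, which lie beyond 80 kb and within 80 kb of the viewpoint. At 80 to 90 kb the Emu libraries had 13.4% to 16.5%.

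At matched distance, the Emu values at the IgG1 region still lay above their hs4 counterpart in the deposited values. A mirror stretch of 20 bins, mostly in the middle, lies as far from hs4 as the IgG1 region lies from Emu. The mirror stretch held 3 bins at 0 in all 16 libraries of both probes and the IgG1 region 0, so the usable bins were not equal in number. Emu libraries had 22.9%, 23.5% and 24.7% of ends in the IgG1 region, and hs4 libraries 15.7%, 15.8% and 13.7% in the mirror stretch. In the other direction, Emu libraries had 8.16%, 10.5% and 8.42% in the mirror stretch, which is as far from Emu as the IgG1 region is from hs4, where hs4 libraries had 13.5%, 12.9% and 12.5%. The groups did not overlap in either comparison (exact permutation p = 0.1 for each, the smallest possible). In recovered contacts the first comparison was 15.1%, 19.2% and 15.9% for Emu and 17.4%, 17.1% and 15.1% for hs4, which overlap (exact permutation p = 0.9). With the Emu libraries of the TPL series the first comparison was 18.8%, 13.1% and 16.1% for Emu, which overlaps the hs4 values too (exact permutation p = 0.7). The second comparison also overlapped in recovered contacts, at 10.3%, 11.9% and 8.21% for Emu and 12.9%, 11.6% and 12.4% for hs4. Its direction turned without pairs under 5 kb apart, at 11.9%, 11.6% and 13.1% for Emu and 11.3%, 11.5% and 13% for hs4 (exact permutation p = 0.5).

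Among pairs of places that met together with the viewpoint, pairs within a zone at IgG1 and beyond it toward Emu were higher from Emu. The 6 called pairs that joined different zones were all lower from Emu. Of all pairs of blocks and of zones with enough contacts, tested together, limma called 24 (10.9%), 10 higher from Emu (4.52%) and 14 lower (6.33%). Among pairs of blocks 6 were higher (3.24%) and 7 lower (3.78%), and among the 36 pairs of zones 4 were higher (11.1%) and 7 lower (19.4%). Values did not overlap in 83 pairs (37.6%). Median-of-ratios scaling moved all pairs by 0.44 on the log2 scale, and the calls were 13 higher and 7 lower. Without pairs under 5 kb apart 0 pairs were called, without pairs in 1 bin 12, and with the Emu libraries without TPL 71, of which 65 were lower.

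Pairs with both ends in the IgG1 region made up 19.7%, 19.5% and 22% of contacts in Emu libraries and 9.0%, 8.21% and 7.76% in hs4 libraries. Every Emu value was above every hs4 value, with a log2 difference of 1.29 (SE 0.18, limma adjusted p = 1.8e-05). Within the block at 140 to 150 kb alone, such pairs made up 9.83%, 10.6% and 13.1% from Emu and 2.82%, 3.23% and 2.97% from hs4 (log2 1.88, SE 0.24, limma adjusted p = 7.5e-06). Pairs of the 2 blocks of the region with each other made up 1.52%, 1.89% and 2.47% from Emu and 0.720%, 0.399% and 0.711% from hs4 (log2 1.68, limma adjusted p = 0.033). That last call was lost when any of the 6 libraries was left out (log2 1.40 to 1.84, adjusted p = 0.05 to 0.16), and by voom and with the Emu libraries without TPL (log2 1.01 and 0.89, adjusted p = 0.25 and 0.28). Without pairs under 5 kb apart, the log2 difference was 1.84 within the region and 2.91 within the block at 140 to 150 kb, and neither passed (limma adjusted p = 0.33 and 0.41).

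The other pairs called higher also lay within a zone or block. Pairs within the IgG3 site made up 3.59%, 5.05% and 4.75% from Emu and 2.01%, 2.36% and 1.40% from hs4 (log2 1.22, limma adjusted p = 0.0060). Pairs within the Emu side made up 17.4%, 15.0% and 13.4% from Emu and 6.52%, 8.00% and 9.95% from hs4 (log2 0.91, limma adjusted p = 8.1e-04). Pairs within the stretch between IgG1 and IgG3 made up 4.07%, 4.38% and 3.53% from Emu and 2.16%, 1.96% and 2.02% from hs4 (log2 0.95, limma adjusted p = 0.019). That last call was lost without Emu replicate 1 or 2, or hs4 replicate 2 or 3 (log2 0.89 to 0.95, adjusted p = 0.054 to 0.071). Without pairs under 5 kb apart the difference was -2.16 within the IgG3 site and -0.57 within the stretch between IgG1 and IgG3, and 0.84 within the Emu side, none past the test (limma adjusted p = 0.55, 0.91 and 0.25). All 3 also missed it without pairs in 1 bin (log2 0.93 to 1.29, adjusted p = 0.06 to 0.14), and pairs within the stretch between IgG1 and IgG3 with the Emu libraries without TPL (log2 0.73, adjusted p = 0.12).

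Pairs within single blocks on this side were called too. Those within the block at 200 to 210 kb made up 4.69 ± 0.89% from Emu and 1.83 ± 0.11% from hs4 (log2 1.33), within the block past 210 kb they made up 5.24 ± 0.35% from Emu and 2.35 ± 0.68% from hs4 (log2 1.19), and within that at 170 to 180 kb they made up 2.87 ± 0.23% from Emu and 1.22 ± 0.25% from hs4 (log2 1.24). Their limma adjusted p were 6.6e-04, 0.0018 and 0.011. For the block at 170 to 180 kb the call was lost without hs4 replicate 2 (log2 1.09, adjusted p = 0.071). All 3 calls were lost without pairs under 5 kb apart (log2 -1.05 to 1.10, adjusted p = 0.83 to 0.93) and without pairs in 1 bin (log2 1.05 to 1.25, adjusted p = 0.06 to 0.28). With the Emu libraries without TPL, those at 200 to 210 kb and 170 to 180 kb were lost (log2 0.65 and 0.55, adjusted p = 0.36 and 0.26). By voom the call at 200 to 210 kb was lost (adjusted p = 0.06).

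**Figure D3:**
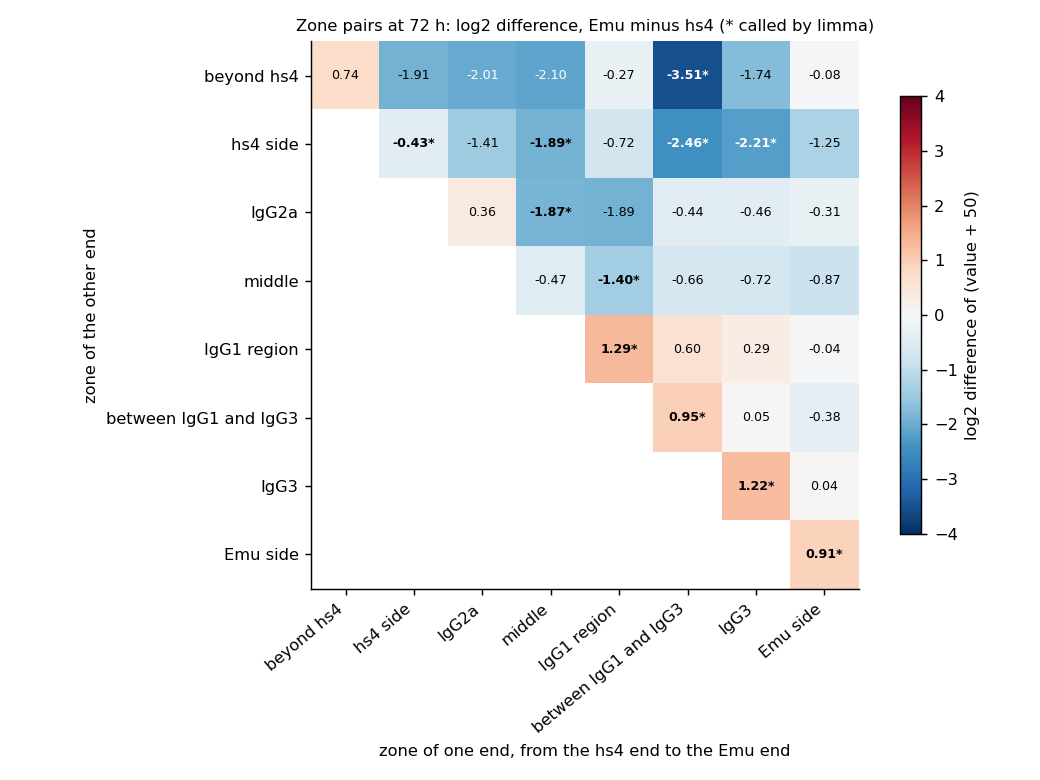
Log2 difference, Emu minus hs4 at 72 h, for each pair of the 8 zones, ordered from the hs4 end to the Emu end on both axes, with red for higher from Emu, blue for lower and an asterisk for a pair called by limma. The 4 called higher lie on the diagonal, within the IgG1 region, the stretch between IgG1 and IgG3, the IgG3 site and the Emu side (log2 0.91 to 1.29), and 6 of the 7 called lower lie off it.

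Each of the 6 joined a zone on the hs4 side of IgG1 to another zone. The hs4 side with the middle made up 1.67%, 1.69% and 1.91% of contacts in Emu libraries and 6.41%, 7.96% and 5.52% in hs4 libraries. These groups did not overlap, with a log2 difference of -1.89 (SE 0.35, limma adjusted p = 7.6e-04). The call was lost with the Emu libraries without TPL (log2 -0.59, adjusted p = 0.28) and without pairs under 5 kb apart (log2 -1.07, adjusted p = 0.15). The IgG2a site with the middle made up 0.328%, 0.752% and 0.346% from Emu and 2.04%, 1.52% and 1.46% from hs4 (log2 -1.87, limma adjusted p = 0.0060). It was lost in the same settings (log2 -1.48 and -1.19, adjusted p = 0.14 and 0.18). The middle with the IgG1 region made up 0.892%, 1.73% and 1.36% from Emu and 3.24%, 3.74% and 3.23% from hs4 (log2 -1.40, limma adjusted p = 0.011). Pairs within the hs4 side were the 1 called pair within a zone that was lower, at 18.5%, 17% and 21.6% from Emu and 25.1%, 24.7% and 26.8% from hs4 (log2 -0.43, limma adjusted p = 0.019). Scaled by the median of ratios its log2 difference was 0.0094 (limma adjusted p = 0.96), and the middle with the IgG1 region missed the test at -0.96 (limma adjusted p = 0.11). The middle with the IgG1 region also missed it without close pairs of either kind (log2 -0.65 and -1.03, adjusted p = 0.49 and 0.10) and without Emu replicate 1 or hs4 replicate 2 (adjusted p = 0.059 and 0.071). Pairs within the hs4 side also missed it without close pairs, by voom, with the Emu libraries without TPL, and without Emu replicate 1 or 2 or hs4 replicate 2 or 3 (log2 -0.45 to -0.12, adjusted p = 0.06 to 0.55).

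The other called joins were longer. The hs4 side with the stretch between IgG1 and IgG3 made up 0.285%, 0.0185% and 0.236% from Emu and 0.735%, 0.723% and 0.792% from hs4 (log2 -2.46, limma adjusted p = 0.021). The hs4 side with the IgG3 site made up 0.0710%, 0.0631% and 0.252% from Emu and 0.854%, 0.525% and 0.377% from hs4 (log2 -2.21, limma adjusted p = 0.023). Both missed the test when scaled by the median of ratios (log2 -2.06 and -1.80, limma adjusted p = 0.08 and 0.085), by voom, and without close pairs of either kind (log2 -2.27 to -1.54, adjusted p = 0.07 to 0.33). The first was lost with the Emu libraries without TPL (log2 -1.11, adjusted p = 0.21), and the second with bins within 20 kb left out (log2 -1.81, adjusted p = 0.12). The first of these calls was lost without Emu replicate 2 or any hs4 library, and the second without Emu replicate 1 or 2 or hs4 replicate 1 or 2. The stretch beyond hs4 with the stretch between IgG1 and IgG3 was at 0 in all 3 Emu libraries and made up 0.155%, 0.197% and 0.171% in hs4 libraries (limma adjusted p = 0.019). Against a floor of 3 recovered contacts over the 3 Emu libraries, this pair was at least 12.5-fold lower from Emu, with 61 recovered contacts from hs4. This call too was lost without Emu replicate 1 or 2 or any hs4 library. It was also lost with the Emu libraries without TPL (log2 -0.38, adjusted p = 0.80) and without pairs under 5 kb apart (log2 -4.73, adjusted p = 0.18).

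The 5 block pairs with the largest falls each joined blocks between 42 and 130 kb. The block at 70 to 80 kb with that at 110 to 120 kb was at 0 in all Emu libraries and made up 0.312%, 0.610% and 0.220% in hs4 libraries, at least 16.5-fold lower from Emu by the same floor (limma adjusted p = 0.011). The block at 100 to 110 kb with that at 110 to 120 kb made up 0.269%, 0.0486% and 0.0529% from Emu and 1.24%, 0.690% and 0.628% from hs4 (log2 -2.93, limma adjusted p = 0.0060). Of the 5, this was the only call that kept its side of the threshold without each library in turn. The block at 80 to 90 kb with that at 120 to 130 kb made up 0.0379 ± 0.0657% from Emu and 0.404 ± 0.136% from hs4 (log2 -3.61). The block at 50 to 60 kb with that at 100 to 110 kb made up 0.0194 ± 0.0336% from Emu and 0.289 ± 0.117% from hs4 (log2 -3.40). The block at 42 to 50 kb with that at 110 to 120 kb made up 0.0282 ± 0.0331% from Emu and 0.261 ± 0.0734% from hs4 (log2 -2.89). Their limma adjusted p were 0.011, 0.019 and 0.0497. The second was lost without pairs in 1 bin (adjusted p = 0.054). The third was lost with pseudocount 10, the median of ratios and the 6 libraries fitted alone (adjusted p = 0.056, 0.12 and 0.061). It was also lost with a replicate block, without pairs in 1 bin and with the Emu libraries without TPL (adjusted p = 0.072, 0.13 and 0.12). The pair at 0 was lost with the Emu libraries without TPL (log2 -2.94, adjusted p = 0.085). All 5 calls were lost without pairs under 5 kb apart (adjusted p = 0.15 to 0.33). For the pairs not at 0 from Emu the log2 differences were then -4.20, -4.02, -3.72 and -3.05. Leaving out close pairs scales up the remaining values against a fixed pseudocount, so these sizes cannot be compared with those above.

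The partners of the IgG1 region are given with no test. Of all contacts with an end in the region, those with both ends in it made up 75.5%, 70.4% and 80.5% in Emu libraries and 49.8%, 46.8% and 45% in hs4 libraries. Contacts of the region with the middle made up 3.41%, 6.25% and 4.98% from Emu and 17.9%, 21.3% and 18.7% from hs4. Those with the hs4 side made up 7.68%, 4.15% and 5.10% from Emu and 13.7%, 12.7% and 15.4% from hs4. Those with the Emu side made up 3.63%, 7.59% and 3.68% from Emu and 6.88%, 7.98% and 7.24% from hs4. The first 3 of these did not overlap between the viewpoints, and the Emu side values did.

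Each share of contacts was also divided by the product of the shares of ends of both zones, again with no test. For different zones, the products for both orders of the ends were added. The IgG1 region with itself was at 3.75, 3.51 and 3.62 times from Emu and 4.91, 4.95 and 4.96 times from hs4. There every Emu value lay below every hs4 value, unlike the share of such pairs. This ratio cannot exceed the inverse of the region's share of ends, which was larger from Emu. In each Emu library that ceiling lay below all hs4 ratios. The order of the viewpoints was thus set by the share of ends and says nothing more about such pairs. The IgG1 region with the Emu side was at 0.103, 0.248 and 0.133 times from Emu and 0.473, 0.464 and 0.377 times from hs4. With the hs4 side it was at 0.197, 0.126 and 0.117 times from Emu and 0.276, 0.263 and 0.309 times from hs4.

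Each Emu library had a smaller share of pairs that spanned the locus than any hs4 library, and a larger share of pairs close together. Spanning pairs, with an end beyond hs4 or on the hs4 side and the other on the Emu side, made up 2.14%, 0.857% and 0.740% of contacts in Emu libraries and 2.22%, 2.61% and 2.31% in hs4 libraries. Emu replicate 1 lay just below the hs4 values, and the other Emu libraries far below. Pairs at least 100 kb apart made up 3.72%, 1.33% and 1.97% from Emu and 4.70%, 4.91% and 4.33% from hs4. Pairs that crossed the IgG1 region, with an end on each side of it, made up 4.86%, 1.97% and 2.71% from Emu and 6.42%, 6.96% and 5.95% from hs4. None of the 3 measures overlapped (exact permutation p = 0.1 for each, the smallest possible).

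At the other extreme, pairs under 10 kb apart made up 79%, 81.9% and 83.2% from Emu and 64.9%, 65.9% and 64.8% from hs4. Pairs with both ends in 1 bin made up 47.4%, 51.9% and 51.4% from Emu and 34.6%, 36.8% and 35.5% from hs4. Neither overlapped (exact permutation p = 0.1 for each, the smallest possible, and 0.1 adjusted over the 11 single measures).

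**Figure D4:**
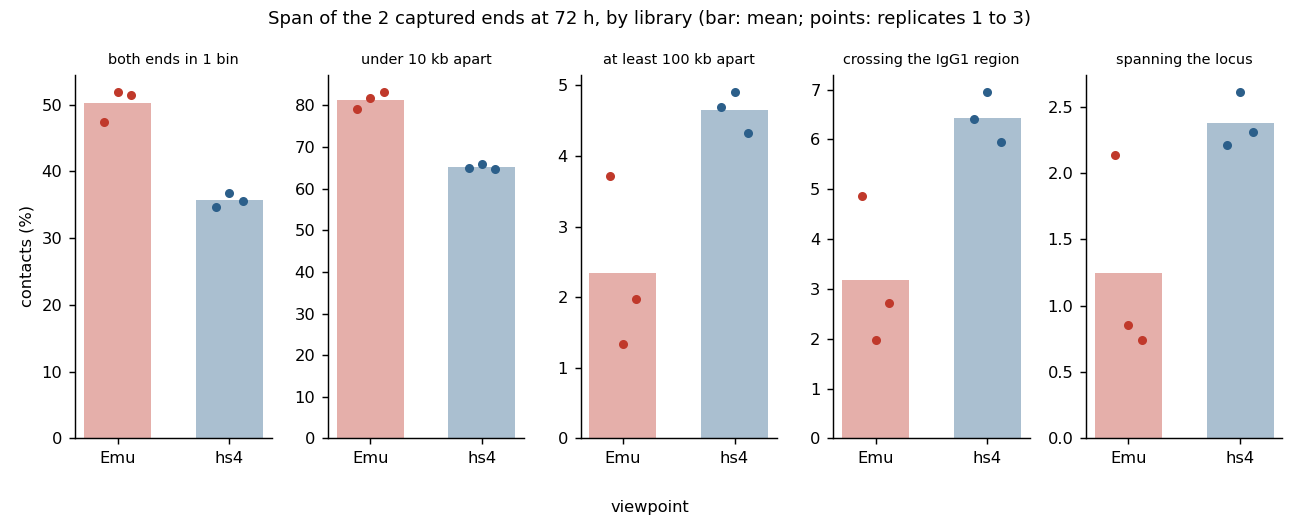
Share of contacts (%) by the span between their 2 ends at 72 h, in Emu libraries (red, left) and hs4 libraries (blue, right), with bars for the mean and a point for replicates 1, 2 and 3 from left to right. Emu libraries have more pairs within 1 bin (47.4% to 51.9%) and fewer spanning pairs (0.740% to 2.14%), and Emu replicate 1 has the most spanning pairs of the 3.

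Close and spanning pairs are parts of the same total. Without pairs under 5 kb apart, spanning pairs made up 8.17%, 3.89% and 3.58% from Emu and 5.36%, 6.54% and 5.73% from hs4. The values then overlapped, and Emu replicate 1 was the highest of the 6 libraries (exact permutation p = 0.7). In recovered contacts the spanning share was 2.17%, 1.16% and 0.692% from Emu and 2.08%, 2.12% and 2.06% from hs4, which also overlap (exact permutation p = 0.4). Ends in the IgG1 region without those close pairs made up 16.4%, 21.7% and 17.3% from Emu and 11.3%, 11.5% and 13% from hs4, and did not overlap.

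Whether these differences between the viewpoints were there before activation was tested in the same fit, with 2 libraries of each probe at 0 h and 3 at 48 h. At 0 h limma already called 4 of 28 blocks and zones higher from Emu and 4 lower. The hs4 side (log2 -0.77, limma adjusted p = 6.3e-04) and the Emu side (log2 0.76, limma adjusted p = 0.0089) had the same direction as at 72 h. The stretch beyond hs4 was called at 0 h (log2 0.74, limma adjusted p = 0.028) but not at 72 h. The middle, the stretch between IgG1 and IgG3 and the IgG3 site were not called at 0 h (limma adjusted p = 0.26, 0.335 and 0.59). The difference at the IgG1 region was larger at 72 h than at 0 h. At 0 h the region held 5.97% and 7.04% of ends from Emu and 6.93% and 5.61% from hs4, which overlap. At 48 h it held 21.2 ± 3.09% from Emu and 11.4 ± 0.70% from hs4 (SD, n = 3 each). The log2 difference at 72 h exceeded that at 0 h by 0.81 (SE 0.21, limma adjusted p = 0.013) for the region and by 1.36 (SE 0.24, limma adjusted p = 0.0015) for the block at 140 to 150 kb. In recovered contacts these were 0.16 (voom adjusted p = 0.83) and 1.13 (voom adjusted p = 0.073), neither past the test. Neither passed without pairs under 5 kb apart (0.68 and 1.11, limma adjusted p = 0.17 and 0.084) or with the Emu libraries without TPL (0.23 and 0.86, adjusted p = 0.67 and 0.08), nor did the region without pairs in 1 bin (0.74, adjusted p = 0.055).

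**Figure D5:**
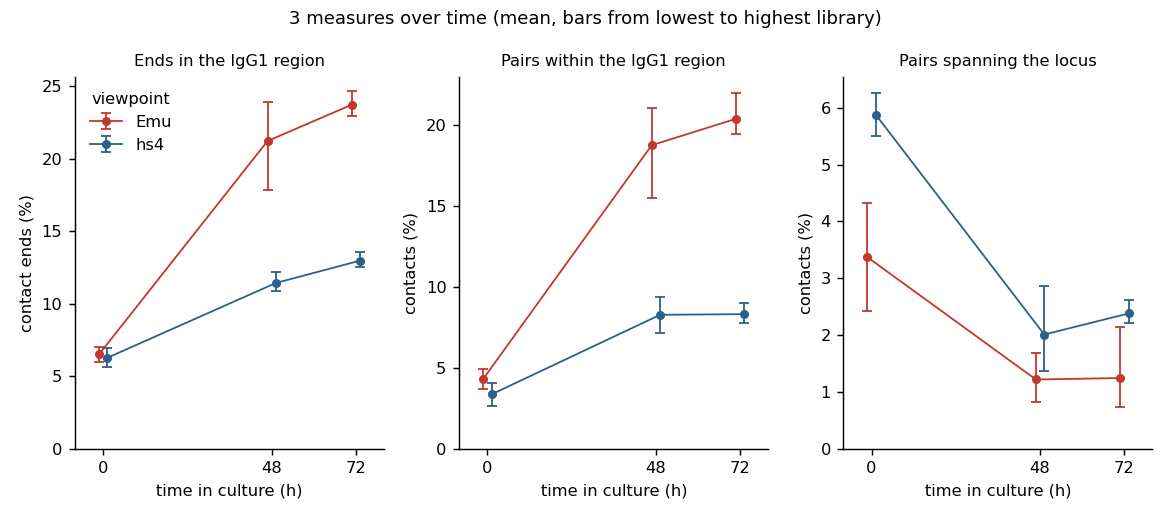
Ends in the IgG1 region, pairs within it and pairs spanning the locus (%) at 0, 48 and 72 h, from Emu (red) and hs4 (blue), as means with bars from the lowest to the highest library (2 libraries of each probe at 0 h, 3 at 48 and 72 h). The viewpoints overlap at 0 h in the first 2 panels and lie apart at 72 h, at 22.9% to 24.7% of ends from Emu and 12.5% to 13.5% from hs4.

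In all, 8 of 28 blocks and zones had a viewpoint difference at 72 h unlike that at 0 h (28.6%), 4 of them more positive (14.3%) and 4 more negative (14.3%). The middle zone held 20.4 ± 3.89% from Emu and 16.7 ± 3.48% from hs4 at 0 h (n = 2 each), so the Emu mean was not below the hs4 mean then. Its log2 difference at 72 h was lower than that at 0 h by 0.99 (limma adjusted p = 0.0085, listed as -0.99). This was -0.43 without pairs under 5 kb apart and -0.71 with the Emu libraries without TPL, neither past the test (adjusted p = 0.30 and 0.15). Within it, the blocks at 110 to 120 kb and 120 to 130 kb had changes in the difference of -1.65 and -1.01 (limma adjusted p = 0.015 for both). The first was -0.03 without pairs under 5 kb apart (adjusted p = 0.99), and missed the test by voom, with the Emu libraries without TPL and without pairs in 1 bin (-1.51 to -1.14, adjusted p = 0.054 to 0.080). The second held under every alternative run. The block at 42 to 50 kb, next to hs4, moved the other way. It held 4.69 ± 0.96% from Emu and 12.6 ± 0.05% from hs4 at 0 h, and 6.58 ± 0.66% from Emu and 8.17 ± 0.39% from hs4 at 72 h (change in the log2 difference 1.12, limma adjusted p = 0.0018). The block past 210 kb, next to Emu, also came closer, with 11.9 ± 1.5% from Emu and 4.02 ± 0.61% from hs4 at 0 h (change in the log2 difference -0.79, limma adjusted p = 0.028). That change missed the test without Emu replicate 1 or hs4 replicate 2 or 3, scaled by the median of ratios, by voom, without close pairs of either kind and with the Emu libraries without TPL (adjusted p from 0.066 to 0.29 in the last 5).

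Among pairs, 4 had a difference at 72 h unlike that at 0 h (1.81%), 1 more positive (0.452%) and 3 more negative (1.36%). They were pairs within the block at 140 to 150 kb (1.45), within that at 110 to 120 kb (-2.45), within the middle (-1.06) and of the blocks at 120 to 130 kb and 190 to 200 kb (-5.85, at 0 in all Emu libraries at 72 h, so that this size depends on the pseudocount), all at limma adjusted p = 0.043. No pair remained called when any 72 h library was left out. By distance, 3 of 18 classes did (16.7%), 2 more positive (11.1%) and 1 more negative (5.56%), at 80 to 90 kb (1.09), 100 to 110 kb (-1.42) and 170 to 180 kb (0.73), and none by voom on recovered contacts. These were 0.88, -0.88 and 0.59 without pairs under 5 kb apart, none past the test (adjusted p = 0.19, 0.061 and 0.40). With the Emu libraries without TPL those at 80 to 90 kb and 170 to 180 kb were 0.62 and 0.31 (adjusted p = 0.20 and 0.43).

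Between 48 and 72 h, 1 change was called. Limma called 0 of 28 blocks and zones (0%, with 2 at an unadjusted p under 0.05) and 0 pairs (0%, with 8), and voom on recovered contacts called 0 and 0. By distance it called 1 of 18 classes (5.56%), at 140 to 150 kb, where Emu held 5.19 ± 1.24% at 72 h and 3.06 ± 0.62% at 48 h while hs4 held 2.64 ± 0.09% at 72 h and 3.69 ± 0.90% at 48 h. That change in the log2 difference of 1.20 (limma adjusted p = 0.046) was lost without Emu replicate 1 or 2 or hs4 replicate 1 or 2 (1.04 to 1.22, adjusted p = 0.060 to 0.15). The change was 0.11 without pairs under 5 kb apart (adjusted p = 0.85).

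At 0 h the spanning share was 3.37 ± 1.35% from Emu and 5.88 ± 0.54% from hs4 (SD, n = 2 each), and at 48 h it was 1.22 ± 0.44% from Emu and 2.01 ± 0.76% from hs4 (SD, n = 3 each). The mean was lower from Emu at all 3 times, although values overlapped at 48 h, with 0.822% to 1.69% from Emu and 1.37% to 2.85% from hs4. Ends more than 99 kb from the viewpoint made up 52.2 ± 2.71% from Emu and 32.4 ± 4.04% from hs4 at 0 h. At 72 h these means were 44.8% and 31.5%. Pairs under 10 kb apart made up 67.5% to 73.9% from Emu and 60.9% to 61.5% from hs4 at 0 h. Neither measure overlapped at 0 h, so both differences were there before activation. Pairs within the IgG1 region did overlap then, at 3.72% to 4.90% from Emu and 2.63% to 4.10% from hs4. None of these measures was tested between times.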

How the data were processed

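Per the labels' protocols, cells were crosslinked with formaldehyde, chromatin was digested with NlaIII and ligated, and libraries were hybridized to 1 capture probe. Bowtie2 and the mouse build mm9 are named in the submitters' processing notes, with no version. The authors deposited a signal, 1 upper-triangle matrix of 1 kb bins per library, scaled to 300000. Its normalization was not given in the sources used here. In these values a contact count appears to have been divided by an integer that belongs to the bin. Contacts were recovered on that basis, and 99.4% to 100% of off-diagonal values and 86.3% to 100% of diagonal values under 20 contacts came out whole. The integers were chosen to make the off-diagonal values whole, so only the diagonal values are a check. The tolerance was 0.04, or 1.5 times the error of rounding where larger. Since this divisor was inferred, recovered contacts are used only for depth, in an alternative and for the bounds on pairs at 0 from Emu. Those bounds pool the contacts of all libraries of a viewpoint, so they carry no measure of spread. Recovered depth was 14971 to 31131 in the 16 libraries. Recovery and fits were tested on simulated data. Recovered contacts were 100% to 111% of the true number in 6 simulated libraries. Their integers were equal or close to those from which the recovery starts, a setting that favors it. Of changed pairs, limma called 0 of 22 at a true log2 change of 1 and 9 of 22 at 2 (40.9%). It called 4 of 4 and 2 of 2 blocks and zones, with 1 unchanged called, and 2 of 2 and 2 of 2 distance classes. A pair that missed the test can thus still differ. Recovery was not trusted for the Emu libraries of the TPL series, whose depth is not given.

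Bins within 10 kb of either viewpoint were removed from both ends, and the rest was rescaled to 300000. Blocks and zones, their pairs with a mean value of at least 100, and distance classes went into 3 two-sided fits of log2(value + 50) with limma 3.58.1 (R 4.3.3), with Benjamini-Hochberg adjustment over each table at 0.05. Fold changes are on that scale, which understates changes of low values. All 16 libraries of both probes at 0, 48 and 72 h shared 1 fit with no replicate term. At 0 h the titles name 1 library of each probe as replicates 1 and 3 together. Single measures were tested with exact two-sided permutation over libraries in scipy 1.17.1. Regions named are every zone, both blocks of the IgG1 region and, among called blocks, distance classes and pairs of each kind, up to 5 with the largest change in each direction whose groups do not overlap. Other called zone pairs, the distance class at 170 to 180 kb and blocks that missed the test were chosen after their values were seen, as were the partners of the IgG1 region. The comparison, zones and rules were chosen with earlier results of these data known. The alternatives tried were other pseudocounts, scaling, widths of blocks and of the bins left out, libraries and counting, a replicate block and leaving out each library. Leaving out pairs within 1 bin was chosen after seeing the data. SDs and p-values cover the spread between these libraries. The maps carry no coordinates, and no sequence was used.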

Additional observations from a re-analysis of the deposited data

Results flagged for a closer look

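In 16 cases the viewpoint difference at 72 h differed from that at an earlier time in the test of that change itself (limma adjusted p under 0.05, change in the log2 difference of Emu minus hs4). Against 0 h, these were 1.12 for the block at 42 to 50 kb, 0.64 for the block at 50 to 60 kb, -1.65 for the block at 110 to 120 kb, -1.01 for the block at 120 to 130 kb, 1.36 for the block at 140 to 150 kb, -0.79 for the block past 210 kb, -0.99 for the middle zone and 0.81 for the IgG1 region. Among pairs they were -2.45 within the block at 110 to 120 kb, 1.45 within the block at 140 to 150 kb, -1.06 within the middle and -5.85 for the block at 120 to 130 kb with the block at 190 to 200 kb. By distance they were 1.09 at 80 to 90 kb, -1.42 at 100 to 110 kb and 0.73 at 170 to 180 kb. Against 48 h it was 1.20 at 140 to 150 kb. Blocks, zones and distance classes overlap, so these are not 16 separate changes. The change for the block at 50 to 60 kb was lost with a replicate block and without close pairs of either kind (limma adjusted p = 0.054 to 0.20). With the Emu libraries without TPL it was 0.28 (limma adjusted p = 0.57). It also missed the test without Emu replicate 1 or 3 or hs4 replicate 1 or 3 (limma adjusted p = 0.061 to 0.072).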

How the results depend on the processing

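Of 28 blocks and zones tested, 17 were called different between the viewpoints. These became 7 without pairs under 5 kb apart and 8 with the Emu libraries without TPL, and 15 to 18 without each library in turn. Calls among pairs numbered 24, but 39 with the 6 libraries fitted alone, 0 without pairs under 5 kb apart, 12 without pairs in 1 bin, 71 with the Emu libraries without TPL, and 10 to 22 without each library (10 without hs4 replicate 2). The 10 distance classes became 5 of 9 at 20 kb width, and 10 to 11 without each library. For 72 against 0 h, the 8 blocks and zones became 5 with bins within 20 kb left out, 2 without pairs under 5 kb apart, 4 without pairs in 1 bin, 2 with the Emu libraries without TPL, and 6 to 8 without each library. The 4 pairs became 2 with pseudocount 10, 1 without pairs under 5 kb apart, 0 without pairs in 1 bin, 1 with no filter, and 0 to 0 without each library. The 3 distance classes became 5 by the median of ratios, 0 by voom, and 3 to 5 without each library. For 72 against 48 h, 0 blocks and zones became 1 with bins within 5 kb left out, and 0 pairs became 5 with the Emu libraries without TPL. The 1 distance class became 2 without pairs under 5 kb apart, and 0 with bins within 5 or 20 kb left out, without pairs in 1 bin, by voom, at 20 kb width and with the Emu libraries without TPL. It was 0 to 2 without each library. The difference of the IgG1 region was 0.29 with the Emu libraries without TPL and 0.84 to 0.90 without each library, its share difference 10.3 to 11.1 percentage points and that of spanning pairs -1.58 to -0.88. The cause of these moves was not tested.

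Signs turned in 12 cases, none past the test. Without pairs under 5 kb apart these were -0.31 beyond hs4, -0.21 for the block at 170 to 180 kb, -1.05 for pairs within it, -2.16 within the IgG3 site, -0.57 between IgG1 and IgG3, 0.37 within the middle (72 against 0 h) and 0.261 percentage points for the IgG1 share at the distance matched to hs4. Without pairs in 1 bin they were -0.052 beyond hs4 and 0.23 at IgG2a, which was 0.071 without Emu replicate 3. The block at 130 to 140 kb gave -0.26 by voom and -0.41 with the Emu libraries without TPL. The cause was not tested.

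Deviations over blocks and zones of libraries with the same replicate number gave r = -0.53, 0.088 and -0.25. Those with different numbers gave r from -0.41 to 0.62. So few values cannot show whether the libraries were paired. With a replicate block, 17 blocks and zones, 22 pairs and 12 distance classes were called, and 7, 0 and 3 for 72 against 0 h and 0, 0 and 0 for 72 against 48 h. Depth limits what can be said of a pair at 0 from Emu, which is bounded only by a floor of 3 contacts over its 3 libraries.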
